A study of Mus musculus with 8 samples.

Results

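Barcodes gated on Ccr3 and Siglecf were examined among myeloid cells of the mouse sciatic nerve at 1 week after surgery. A barcode entered the gate with at least 1 UMI of Ccr3 or Siglecf and at least 2 UMIs of Ccr3, Siglecf, Cebpe and Alox15 together. Barcodes in which S100a8 and S100a9 made up 1% or more of the UMIs were left out, and all barcodes had 200 or more genes and under 10% mitochondrial UMIs. The gate took 222 of the 3261 barcodes of the same filters in the 2 libraries of this time, from a series of 9133 barcodes. The other 3039 barcodes were the comparison.

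Cells came from C57BL/6JolaHsd mice of both sexes with no transgene or deletion. They were sorted from the digested nerve as CD45+ and CD11b+, and Ly6G+ cells, which are mainly neutrophils, were gated out. One 1 week library pooled a sham male (sham M), a crush female (crush F) and a crush male (crush M); the other pooled a sham female (sham F), a PSNL female (PSNL F) and a PSNL male (PSNL M). Crush is a forceps injury of the whole nerve, PSNL is a partial ligation of the nerve with suture, and in sham the nerve was exposed and left untouched. Samples within a library were told apart by hashtag antibodies against MHC class I. It is not known from the labels if a hashtag marked a single mouse or several pooled ones, and crush and PSNL cannot be told apart from their libraries. The 2 libraries held 1920 and 2471 barcodes, with medians of 3807 and 4330 UMIs, and shared 1 barcode sequence, which was not a gated one.

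Eosinophils are granulocytes that leave the marrow under the cytokine IL-5 and enter tissue along eotaxins, the ligands of the chemokine receptor Ccr3. Mouse eosinophils carry the inhibitory lectin Siglec-F, need the transcription factor C/EBP epsilon for their granules, and express the 12/15-lipoxygenase made by Alox15. Their granules hold major basic protein (Prg2), eosinophil peroxidase (Epx) and ribonucleases of the Ear family. Siglec-F is also found on alveolar macrophages, and Alox15 on resident peritoneal macrophages. C/EBP epsilon also acts in neutrophils.

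Ccr3 and Alox15 carried most UMIs of the gate. Alox15 gave 445 UMIs in 80.2% of the gated barcodes, and Ccr3 gave 400 in 88.7%, a share that the rule favours by asking for Ccr3 or Siglecf. Siglecf (80 UMIs, 27.5%) and Cebpe (77 UMIs, 27.9%) were found in fewer of them. Among the other barcodes, Ccr3 was found in 0.954%, Siglecf in 1.18%, Cebpe in 3.39% and Alox15 in 2.86%. These values chose the barcodes and are a description only. Ccr3 lies at chr9:124021972-124031689 on the plus strand (GRCm38) and Siglecf at chr7:43351341-43359531.

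RefSeq promoters (GRCm38.p6) are shown for Ccr3, the surface gene found in most gated barcodes, for Il5ra, the IL-5 receptor chain, and for Retnlg, the gene outside the gate that carried most UMIs of those that were higher in gated barcodes. Each is the 250 bases before the start of the gene, 5′ to 3′. Capitals mark GATA motifs (the letters GATA with A or T before and A or G after, on either strand), because GATA-1 is the factor that sets the eosinophil lineage. They span chr9:124021721-124021970 on the plus strand for Ccr3, chr6:106749038-106749287 on the minus strand for Il5ra and chr16:48872358-48872607 on the plus strand for Retnlg.
Ccr3: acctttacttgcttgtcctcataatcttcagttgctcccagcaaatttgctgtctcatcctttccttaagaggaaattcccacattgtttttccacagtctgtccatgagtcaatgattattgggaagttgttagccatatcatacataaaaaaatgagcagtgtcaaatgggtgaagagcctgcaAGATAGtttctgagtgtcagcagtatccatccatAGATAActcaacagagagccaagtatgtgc
Il5ra: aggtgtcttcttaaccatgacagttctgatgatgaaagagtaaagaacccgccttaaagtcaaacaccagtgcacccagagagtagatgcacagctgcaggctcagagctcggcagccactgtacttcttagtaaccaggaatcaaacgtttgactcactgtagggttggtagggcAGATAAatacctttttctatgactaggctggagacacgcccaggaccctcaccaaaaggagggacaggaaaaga
Retnlg: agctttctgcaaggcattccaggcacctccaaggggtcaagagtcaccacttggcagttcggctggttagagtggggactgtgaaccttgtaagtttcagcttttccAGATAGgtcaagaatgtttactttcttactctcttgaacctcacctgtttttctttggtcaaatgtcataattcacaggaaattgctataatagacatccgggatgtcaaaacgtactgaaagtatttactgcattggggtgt
Ccr3 held 2 motifs, with first bases at -64 and -30 from the gene start. Il5ra held 1 at -74 and Retnlg 1 at -143. Of 8 genes looked up, 5 had an entry, and the windows of Siglecf and Epx held none of these letters. Prg2, Cebpe and Alox15 were the genes without an entry. The same motifs occurred in 27.1% of 27025 promoters of this length, so a match describes the sequence and is no sign of a bound factor.

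The label of eosinophils was checked against granule genes that the gate did not use. Prg2 gave 18 UMIs in the gated barcodes of the crush samples. Ear1 gave 5 UMIs in crush F and 1 in crush M, against 0 in the other barcodes. Il5ra gave 3 and 5 UMIs, and the lineage factors Gata1 (3 and 3) and Gata2 (1 and 3) were as sparse. Epx, Prg3, Ear6 and Ear10 were at 0 UMIs in gated and other barcodes alike, so 4 of the 7 granule genes on the list were not detected; 0 of 200404 UMIs allows a level of up to 15.0 CPM (UMIs of a gene per 1000000 UMIs of the class). Ptgdr2 and Hrh4, receptors for prostaglandin D2 and histamine found on eosinophils, were also at 0. In these crush samples the median gated barcode held 836 UMIs in crush F and 843 in crush M, against 5593 and 5304 in the other barcodes. With the peroxidase at 0 and at this depth, the barcodes are called gated barcodes here and not eosinophils.

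Markers of other cells that the sort could hold were counted in the same way. Of the 11 neutrophil markers, 6 were at 0 UMIs in the gated barcodes of the crush samples (Ly6g, Camp, Ngp, Ltf, Elane and Mpo). The sort against Ly6G and the limit on S100a8 and S100a9 favoured such zeros in advance. The list nevertheless summed to 9722 CPM in crush F and 13603 in crush M, against 138 and 303 in the other barcodes, since it includes Retnlg. Without Retnlg it stood at 300 CPM in the gated barcodes with 1 hashtag of the crush library, against 56.4 in the other barcodes with 1 hashtag. Alveolar and peritoneal macrophage markers such as Marco, Car4, Krt79 and Gata6 were at 0, with 7 of 9 undetected. Their list summed to 0 CPM in crush F and 37.3 in crush M, against 24.9 and 38.6 in the other barcodes. It was thus low in both classes. Of the 9 basophil and mast cell markers, 7 were at 0 (among them Mcpt8, Ms4a2, Cpa3 and Prss34). That list still summed to 60.4 CPM in crush F and 59.6 in crush M, against 32.2 and 48.6 in the other barcodes. Of its 2 genes that could be tested, 0 were called. Macrophage markers summed to 2974 CPM in crush F and 22287 in crush M, against 16712 and 26104 in the other barcodes, and the dendritic cell list to 19926 and 12992 against 28090 and 33698.

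At the edge of the gate, 57 barcodes had exactly 2 gate UMIs, with a median of 4257 UMIs in all, and 165 had 3 or more, with a median of 1413. Retnlg made up 1% or more of the UMIs in 12 of the first and 86 of the second. Just outside, 65 barcodes had 1 UMI of Ccr3 or Siglecf and no other gate UMI, of which 7 held Retnlg at that level, and 66 had 2 or more UMIs of Cebpe and Alox15 without Ccr3 or Siglecf, of which 23 did. Of the 2795 barcodes with no gate UMI, 6 did. The gate therefore passed barcodes of unlike content, and those with Siglecf but no Ccr3 (25 barcodes, median 8984 UMIs, 3 with Retnlg at 1%) stood apart in depth from those with both (36 barcodes, median 1150 UMIs, 23 with Retnlg at 1%).

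Gated barcodes were a larger share of the cells after crush than after PSNL. Of the barcodes with 1 hashtag, they made up 37 of 358 (10.3%, 95% Clopper-Pearson interval 7.38 to 13.96) in crush F and 70 of 652 (10.7%, 8.47 to 13.4) in crush M. In PSNL F they were 6 of 406 (1.48%, 0.544 to 3.19) and in PSNL M 5 of 777 (0.644%, 0.209 to 1.50). Sham M held 2 of 96 (2.08%, 0.253 to 7.32) and sham F 0 of 69 (Clopper-Pearson upper limit 5.21%; a count of 0, taken as under 3 counts, allows up to 4.35%). Both crush samples were above all 4 other samples, and PSNL and sham overlapped. Intervals and limits of this kind cover counting error only.

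**Figure D1:**
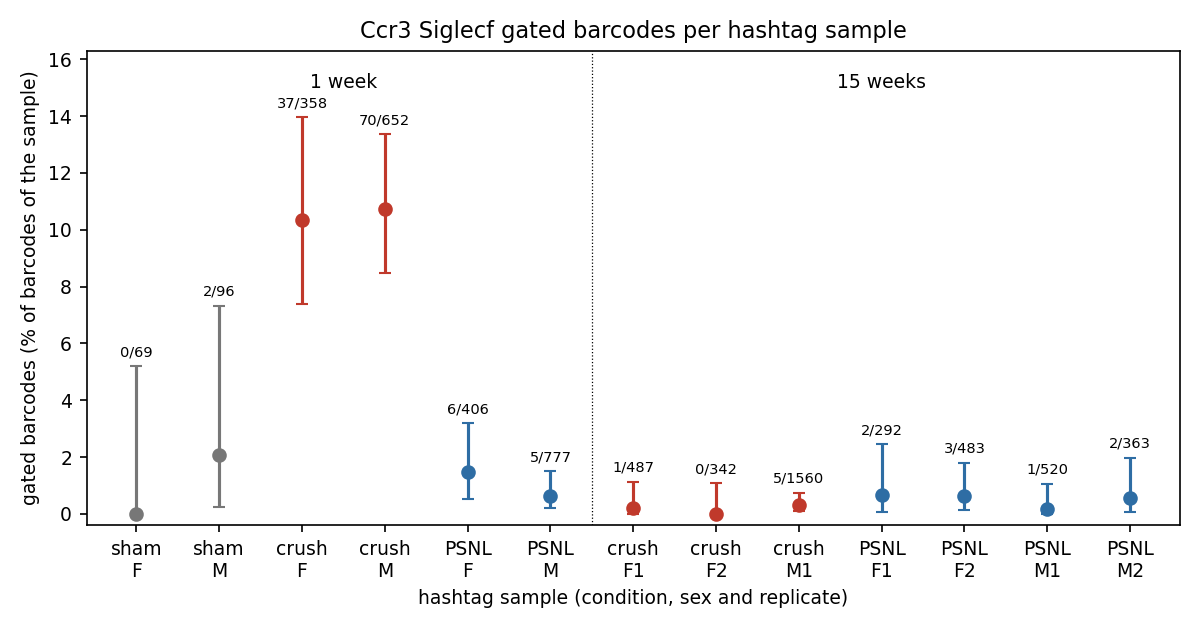
Share of gated barcodes (percent of the barcodes with 1 hashtag and the same filters, y axis) in the hashtag samples (x axis) at 1 week (left) and 15 weeks (right), with 95% Clopper-Pearson intervals as error bars and gated of all barcodes above each. The crush samples at 1 week sit at 10.3% and 10.7%, the PSNL and sham samples of that time between 0% and 2.08%, and all samples at 15 weeks between 0% and 0.685%.

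The mean share was 10.5% ± 0.284 (SD, n = 2) after crush and 1.06% ± 0.590 (SD, n = 2) after PSNL, a difference of 9.48 percentage points. This was larger than the spread between samples, but the exact permutation test (2-sided) gave p = 0.3333, the smallest p that 2 samples against 2 allow. The difference kept its direction under every setting of the gate, hashtag and depth that was tried, and was smallest at 2.18 points with each barcode thinned to 1000 UMIs. That setting drops barcodes of under 1000 UMIs, where most gated barcodes with 1 hashtag lay; thinned to 500 UMIs, it was 5.71. Over the 4 injured samples the share was 5.80% ± 5.48 (SD), against 1.04% ± 1.47 (SD) in the 2 sham samples, with an exact permutation p of 0.4 where the smallest possible was 0.133.

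Most of that share lay in barcodes of few UMIs. Below 2000 UMIs, a bound set after seeing the data, gated barcodes were 31 of 76 in crush F (40.8%) and 59 of 159 in crush M (37.1%). They were 5 of 79 in PSNL F (6.33%), 4 of 110 in PSNL M (3.64%) and 1 of 15 in sham M. At 2000 UMIs and above they were 6 of 282 (2.13%), 11 of 493 (2.23%), 1 of 327 (0.306%), 1 of 667 (0.150%) and 1 of 81 (1.23%). Both crush samples were above both PSNL samples in each size class, the larger one resting on 1 gated barcode per PSNL sample. Sham F held 0 of 18 and 0 of 51.

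Gated barcodes came in 2 kinds by size and hashtag number. Of the 222, 120 carried 1 hashtag, with a median of 839.5 UMIs, and 102 (45.9%) carried 2 or more, with a median of 6064. Among the other barcodes 25.2% carried 2 or more. The most frequent set was crush F with crush M (56 barcodes), followed by PSNL F with PSNL M (14) and all 3 hashtags of the crush library (14). Xist and Ddx3y, expressed from the inactive X of females and from the Y, were found together in 20 of the 102 and in 0 of the 120. Among the other barcodes they were found together in 108 of 766 with 2 or more hashtags and in 3 of 2238 with 1. Each hashtag sample was of 1 sex and the 120 held few UMIs, so the 0 cannot show that these were single cells. Barcodes of several hashtags were left out of all comparisons between samples; a pair of cells from 1 sample carries 1 hashtag and stays in, and no other doublet caller was used.

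Retnlg and the macrophage genes separated the same kinds. In the 100 gated barcodes with 1 hashtag and under 2000 UMIs, Retnlg stood at 27273 CPM and the 13 macrophage markers together at 1843 CPM, and 60 of these barcodes had no macrophage marker UMI at all. Retnlg made up 1% or more of the UMIs in 86 of them. In the 20 gated barcodes with 1 hashtag and 2000 or more UMIs, Retnlg stood at 1771 CPM, the macrophage markers at 19527 and the dendritic cell list at 23991, and Prg2 was at 0. Small barcodes outside the gate (357) held Retnlg at 2275 CPM and macrophage markers at 14893, near the 14834 of larger barcodes outside the gate. Per barcode, small ones outside the gate had no macrophage marker UMI in 83 of 357 (23.2%), and in 51 of 159 (32.1%) in the crush library, against 6.06% of the larger ones. Barcodes without macrophage UMIs were thus more frequent among small barcodes of either kind, and 60.0% of the small gated ones had none. The larger gated barcodes gave 63.5% of the gated UMIs of crush F and 61.8% of those of crush M. Unless those under 2000 UMIs are named, the values of genes below are for all gated barcodes and mix both kinds. In crush F and crush M, Cxcr4 stood at 1721 and 1699 CPM in all gated barcodes and at 4015 and 3547 under 2000 UMIs. Cd74 moved the other way, from 9374 and 5411 CPM to 290 and 565. The plot of levels of selected genes shows both sets.

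**Figure D2:**
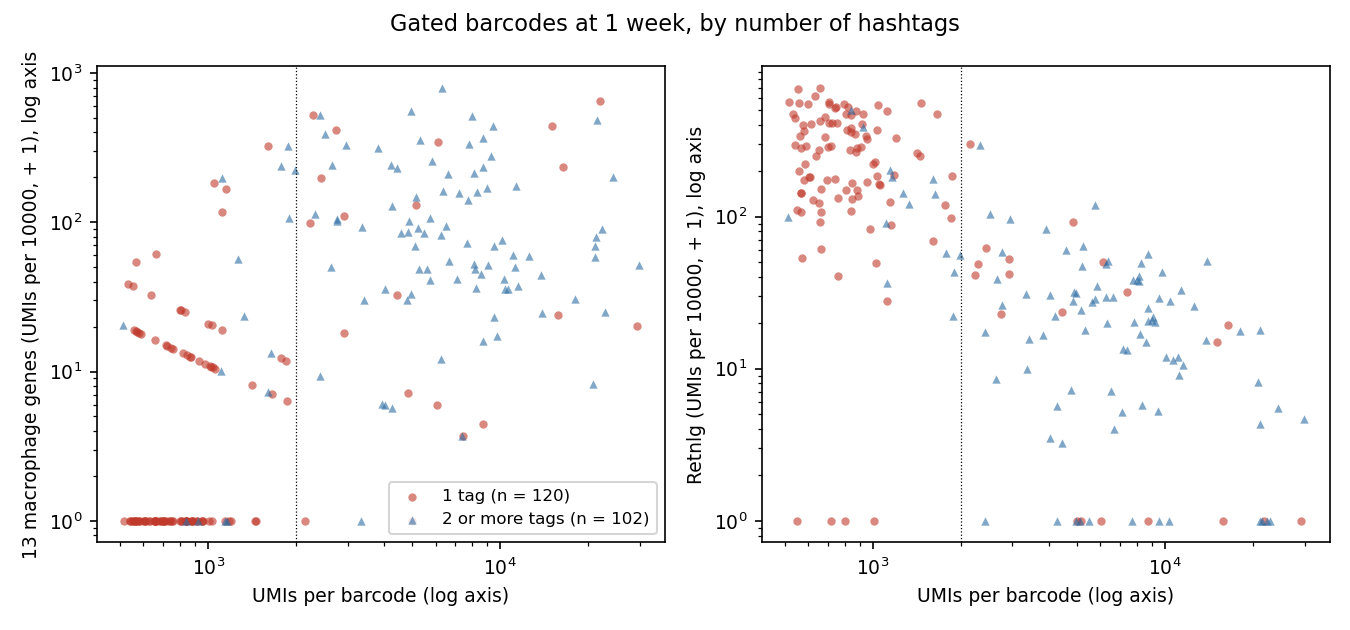
Each point is a gated barcode, with its total UMIs (log scale) on the x axis and, on log y axes, the 13 macrophage genes (left) or Retnlg (right) in UMIs per 10000 plus 1, with circles for 1 hashtag, triangles for 2 or more and a dotted line at 2000 UMIs. Barcodes with 1 hashtag gather at low UMIs with high Retnlg and few macrophage UMIs (median 839.5 UMIs), and those with 2 or more hashtags at high UMIs (median 6064).

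Genes were compared between gated and other barcodes in crush F and crush M, the only samples with 10 or more gated barcodes. Of 8094 genes outside the rule, 447 (5.52%) passed an adjusted p of 0.05 in the quasi-likelihood F-test of edgeR with sample as a block, 302 higher in gated barcodes (3.73%) and 145 lower (1.79%). With at least 3 gate UMIs asked for, the balance turned, with 237 higher and 264 lower, and 328 of those 501 genes were among the 447. The p-values rest on 2 hashtag samples, and the block takes out the difference in level between them. With so few samples the variance of a gene leans on that of other genes. A call therefore does not show that both samples agreed. Ccl22 was called with gated barcodes at 2340 CPM against 157 in crush F and 29.8 against 35.4 in crush M. Since the barcodes were chosen on 4 of their own genes, the comparison orders the genes and is no test that a class exists. Restricted to gated barcodes under 2000 UMIs, 968 of 7812 genes passed (12.4%), 291 higher (3.73%) and 677 lower (8.67%), and 376 of the 447 were among them, 374 in the same direction. With PSNL F and PSNL M added (5 or more gated barcodes each), 213 of 7366 genes passed (2.89%), 155 higher (2.1%) and 58 lower (0.787%), and the count was 48 without crush M and 81 without crush F. Of 66 genes called on the lists below, 38 were also called by DESeq2 and 28 with the PSNL samples added, in the same direction; 3 of the rest could not be tested with the PSNL samples. The median log2 difference was -0.19 over all genes tested and -0.81 in the restricted comparison.

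Retnlg encodes resistin-like gamma, a secreted protein best known from mouse neutrophils and marrow. It stood at 9495 CPM in crush F and 13201 in crush M in gated barcodes, against 94.0 and 241 in the others. The log2 difference was 5.94 ± 0.54 (SE), a 61.5-fold higher level (adjusted p = 1.39e-25, edgeR). In the gated barcodes of PSNL F and PSNL M, which the comparison did not use, it stood at 9767 and 10780 CPM, against 31.2 and 11.9 in the others. In both libraries together, 199 of the 222 gated barcodes held a Retnlg UMI (89.6%, median 1852 UMIs in all), against 266 of the other 3039 (8.75%, median 5322 UMIs). Summed per sample, the 4 injured samples were alike in this gene, with gated sums above all sums of other barcodes. Single barcodes did overlap. The share of all genes that part in this way over the 4 samples was not computed. In crush alone, both samples were higher in gated barcodes for 27.0% of the genes tested and both lower for 22.9%. Mmp9, a gelatinase stored in neutrophil granules, was the other neutrophil marker that was higher (log2 difference 4.66), at 211 and 298 CPM against 12.4 and 6.14. The receptors Csf3r (1 and 7 UMIs) and Cxcr2 (0 and 5 UMIs) that mark neutrophils were at 0 UMIs in gated barcodes under 2000 UMIs.

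Among granule genes, Prg2 stood at 106 and 82.0 CPM in gated barcodes of crush F and crush M, against 1.84 and 1.17, a log2 difference of 5.65 ± 0.76 (SE; adjusted p = 1.35e-11, edgeR). It rested on 7 and 11 UMIs, with 2 in PSNL F and 0 in PSNL M. Ear2 went the other way, at 75.5 and 0 CPM against 176 and 32.8 (log2 difference -2.01, adjusted p = 0.018, edgeR). The Ear genes are near-identical copies, so reads may have been shared or lost between them and these values are uncertain. Of the 2 granule genes that passed the filter on low counts, 1 was higher and 1 lower (3.73% and 1.79% over all genes tested). The call of Ear2 was lost in DESeq2 (adjusted p = 0.462).

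Receptors for growth factors and cytokines differed little as a list. Of 10 tested, 1 was higher and 1 lower (3.73% and 1.79% over all genes tested), with a median log2 difference of -0.46. Il1rl1, the receptor of IL-33, was higher (196 and 157 CPM against 29.9 and 16.4, log2 difference 2.74). Il4ra, which binds IL-4 and IL-13, was lower (-1.76), a call lost in DESeq2 (adjusted p = 0.777). The shared beta chain Csf2rb, which carries the IL-5, IL-3 and GM-CSF signal, stood at 15.1 and 96.9 CPM against 111 and 113, and did not pass (adjusted p = 0.181, edgeR). Under 2000 UMIs, 4 of the 10 were lower and 1 higher (8.67% and 3.73% over all genes tested there).

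Of the chemoattractant and lipid mediator receptors tested, 3 of 12 were higher and 1 was lower (3.73% and 1.79% over all genes tested). Cxcr4, the receptor of Cxcl12 that holds leukocytes in marrow and tissue, led them. It stood at 1721 and 1699 CPM in gated barcodes against 101 and 180, a 10.4-fold higher level (log2 difference 3.38 ± 0.37 SE, adjusted p = 1.21e-17, edgeR). P2ry10, a lysophospholipid receptor (377 and 283 CPM against 58.0 and 53.5), and Adora3, an adenosine receptor (60.4 and 67.1 against 5.53 and 10.2), were also higher. Ccr2, the receptor that brings monocytes into tissue, was lower, at 226 and 425 CPM against 548 and 646. Its UMIs came from the larger barcodes, since it was at 0 in gated barcodes under 2000 UMIs. DESeq2 did not call Ccr2 (adjusted p = 0.431) or Adora3 (0.117).

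Of 19 adhesion and inhibitory surface receptors tested, 7 were higher and 0 lower (3.73% and 1.79% over all genes tested). Their median log2 difference was 0.35. The largest difference was in Cd24a, a small glycoprotein of granulocytes and immature leukocytes, at 1555 and 1252 CPM against 113 and 66.7 (log2 difference 3.74 ± 0.36 SE, adjusted p = 4.37e-22, edgeR). Itgal, the alpha chain of LFA-1, stood at 211 and 201 CPM against 22.1 and 29.6 (2.69). The inhibitory receptor Cd300lf (1.43), the hyaluronan receptor Cd44 (1.22), the tetraspanin Cd9 (1.12) and Adgre1, which encodes F4/80 (1.00), were higher by less. Itgam, which encodes the CD11b of the sort, stood at 589 and 574 CPM against 306 and 236 and did not pass (adjusted p = 0.108, edgeR). In DESeq2 2 of the 7 calls held, Cd24a and Itgal, and with the PSNL samples added 3 held.

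Of 9 transcription factors on the list of the lineage, 4 were higher and 0 lower (3.73% and 1.79% over all genes tested). Ikzf2, an Ikaros family factor, differed most, at 196 and 179 CPM against 9.21 and 10.5 (log2 difference 3.94 ± 0.49 SE). Trib1, a pseudokinase that limits C/EBP alpha and is needed for mouse eosinophil identity, stood at 287 and 432 CPM against 56.2 and 74.3 (2.20). Cebpb was higher at 1615 and 1282 CPM against 351 and 333 (1.80), and the ETS factor Fli1 by 1.23. With the PSNL samples added, neither held (Cebpb 0.73, adjusted p = 0.566; Fli1 adjusted p = 0.189, edgeR), and Fli1 also failed in DESeq2 (0.458). The ratio of gated to other barcodes for Cebpb differed between injuries (interaction, PSNL minus crush, -2.34, adjusted p = 0.0196, edgeR). The median interaction over all genes was -1.67, and DESeq2 did not call Cebpb in it. Spi1, which encodes PU.1 and is shared by myeloid cells, was level (423 and 335 CPM against 275 and 332, 0.03), and Cebpa did not pass.

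**Figure D3:**
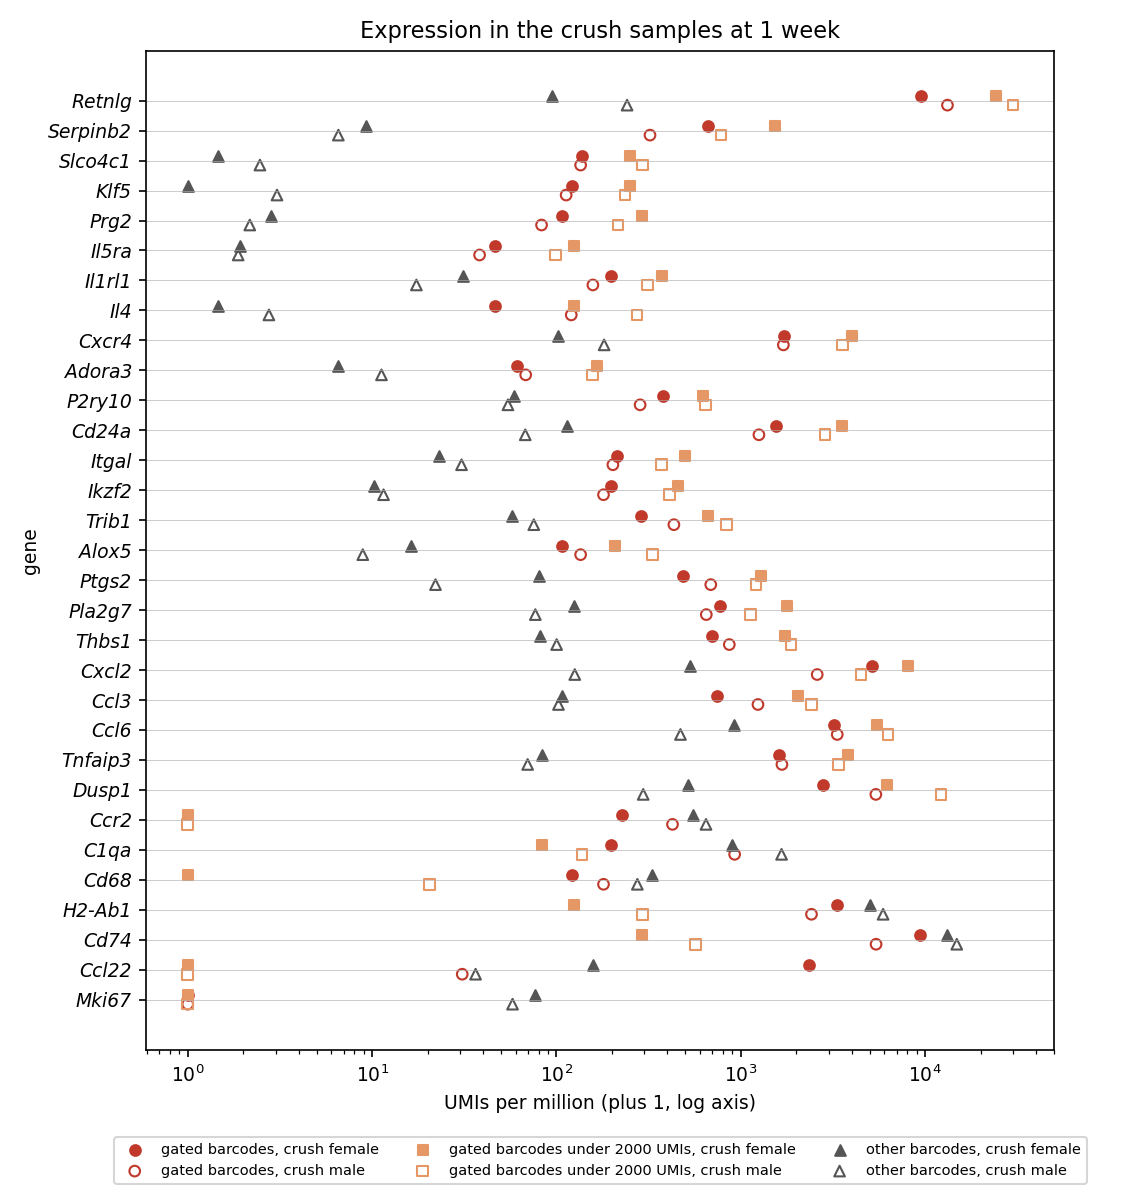
Levels of selected genes (CPM plus 1, log x axis; genes on the y axis) in gated barcodes (circles), those of them under 2000 UMIs (squares) and other barcodes (triangles), filled for crush F and open for crush M. Retnlg, Cxcr4 and Cd24a lie higher in the gated barcodes of both samples (Retnlg 9495 and 13201 CPM against 94.0 and 241).

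Enzymes of eicosanoid synthesis were higher in 5 of 13 tested and lower in 1 (3.73% and 1.79% over all genes tested). Alox15, which the gate used, was not counted. Ptgs2, the inducible cyclooxygenase, stood at 483 and 686 CPM against 79.7 and 21.1 (log2 difference 3.59 ± 0.34 SE, adjusted p = 9.3e-23, edgeR). Alox5, which makes the leukotriene precursor, stood at 106 and 134 CPM against 15.2 and 7.90 (3.27). Cyp4f18, which inactivates leukotriene B4 in mouse, was higher by 2.78, Pla2g4a, the phospholipase that releases arachidonic acid, by 2.71, and Pla2g7, which degrades platelet-activating factor, by 2.61. Hpgd, which inactivates prostaglandins, was lower, at 0 and 14.9 CPM against 53.4 and 52.7. Ltc4s, the leukotriene C4 synthase, gave 0 and 2 UMIs and did not pass. DESeq2 kept 5 of the 6 calls (all but Hpgd). Ptgs2 was at 0 CPM in PSNL F and 2408 in PSNL M gated barcodes, against 257 and 332 in the others. Its ratio differed between injuries in edgeR (interaction -3.10, where the median over all genes was -1.67) but was not called by DESeq2.

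Cytokines and growth factors made by eosinophils were higher in 6 of 11 tested and lower in 0 (3.73% and 1.79% over all genes tested). Il4 gave few UMIs (3 in crush F and 16 in crush M), at 45.3 and 119 CPM against 0.461 and 1.76, a log2 difference of 5.83 ± 0.77 (SE; adjusted p = 4.79e-12, edgeR). Il13 and Il5 were at 0 UMIs. Thbs1, a matrix protein that activates TGF-beta, stood at 694 and 865 CPM against 80.6 and 99.2 (2.85), and Vegfa at 106 and 44.7 against 10.6 and 4.10 (3.09). Il6 rested on crush M, with 34 UMIs there and 1 in crush F (5.38). Of those 34, 5 came from gated barcodes under 2000 UMIs and the rest from larger ones. Csf1 (2.70) and Osm (1.98) were the remaining genes called. DESeq2 kept 4 of the 6 calls (not Csf1 and Osm), and with the PSNL samples added 2 held (Il4 and Csf1). In PSNL F, Thbs1 was lower in gated than in other barcodes (337 against 612 CPM, on 3 UMIs), and in PSNL M higher (4243 against 791). Of its 37 UMIs in PSNL M, 1 came from gated barcodes under 2000 UMIs. The rest came from the 1 larger gated barcode of that sample.

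Chemokine ligands were higher in 7 of 12 tested and lower in 1 (3.73% and 1.79% over all genes tested). Cxcl2, which draws neutrophils, stood at 5148 and 2594 CPM against 527 and 125 (log2 difference 3.56 ± 0.41 SE, adjusted p = 1.34e-15, edgeR). Ccl6, a mouse chemokine of eosinophils and other myeloid cells, was at 3185 and 3332 CPM against 919 and 469 (2.05). Ccl3 (740 and 1237 CPM against 105 and 102, 2.97), Ccl4 (1.51) and Cxcl3 (3.36) were also higher. Ccl5, a T cell and monocyte attractant, was lower by -5.53, with 1 UMI in crush F and 0 in crush M. Ccl22, a chemokine of dendritic cells, stood at 2340 CPM in crush F and 29.8 in crush M against 157 and 35.4; its 155 and 4 UMIs all came from barcodes of 2000 or more UMIs, and Ccl17 likewise. Without those barcodes, 5 were higher and 3 lower (3.73% and 8.67% over all genes tested there). DESeq2 kept 5 of the 8 calls (not Ccl17, Ccl22 and Cxcl3), and with the PSNL samples added 3 held, those of Ccl3, Ccl5 and Ccl17.

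Of 13 activation and immune checkpoint genes tested, 4 were higher and 0 lower (3.73% and 1.79% over all genes tested). Their median log2 difference was -0.05. Tnfaip3, an NF-kappa-B inhibitor, was higher at 1615 and 1670 CPM against 82.0 and 68.8 (log2 difference 4.19). Nfkbia, another such inhibitor, was higher at 3276 and 3824 CPM against 427 and 408 (2.82). Nfkbiz (1.76) and the glucose transporter Slc2a3 (2.51) were the others. DESeq2 kept all 4, and with the PSNL samples added Nfkbia and Nfkbiz were lost. Relb, an NF-kappa-B subunit, stood at 60.4 and 7.45 CPM against 68.2 and 42.7 (-1.29, not called) and was lower under 2000 UMIs, where it was at 0 UMIs. Of 16 survival and cytokine signal genes only the kinase Pim1, a target of STAT5, was called (1781 and 1647 CPM against 316 and 246, 2.35), while the anti-apoptotic Mcl1 stood at 1027 and 939 CPM against 486 and 606 and did not pass. Early response genes were mixed, with 4 of 11 higher and 2 lower. Dusp1 (2793 and 5397 CPM against 516 and 294, 3.06), Egr1 (2.98), Junb (2.37) and Ier2 (1.61) were higher, and Hspa1a (-1.95) and Atf3 (-1.22) lower. Ier2 and Atf3 were not called by DESeq2, and Dusp1, Junb and Ier2 were lost with the PSNL samples added.

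The largest rises outside the lists were also found at low UMI counts. Slco4c1, an organic anion transporter, stood at 136 and 134 CPM against 0.461 and 1.46 (log2 difference 6.61), and Klf5, a zinc finger factor, at 121 and 112 against 0 and 2.05 (6.20). Serpinb2, a plasminogen activator inhibitor (5.80), Rflnb (5.73), G0s2, an inhibitor of lipolysis (5.47), and Gadd45a, a stress-response gene (5.31), rested on more UMIs. G0s2 was at 951 and 902 CPM against 9.21 and 27.2. Olr1, a scavenger receptor for oxidised lipoprotein (5.11), coagulation factor F5 (34.4-fold), Acod1, which makes itaconate (4.78), and Gapt, an adaptor of haematopoietic cells (4.73), completed the largest rises. In gated barcodes of PSNL F and PSNL M, F5 stood at 1347 and 573 CPM, Gapt at 561 and 573, G0s2 at 561 and 1147, Gadd45a at 1572 and 1032 and Rflnb at 1010 and 229. Serpinb2 (0 and 1261), Slco4c1 and Klf5 (112 and 0 each), Olr1 (0 and 115) and Acod1 (0 and 229) were found in 1 of the 2, in most of them as 1 or 2 UMIs.

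Macrophage markers were lower in 6 of 13 tested and higher in 0 (1.79% and 3.73% over all genes tested). Their median log2 difference was -1.20. C1qa (196 and 924 CPM against 899 and 1662, log2 difference -1.65), C1qb (-1.68) and C1qc (-1.86), the chains of complement C1q, were the clearest, with Cx3cr1 (-1.27) and Cd68 (-1.20). In gated barcodes under 2000 UMIs, 11 of 13 were lower and the median was -4.12. Over all genes tested there, 8.67% were lower and the median was -0.81. Apoe, the most abundant of the list, stood at 1917 CPM in crush F and 17904 in crush M against 12085 and 19123 and did not pass (adjusted p = 0.0743, edgeR). Under 2000 UMIs it stood at 911 and 1072 CPM and passed. Of the 6 calls, DESeq2 kept those of the C1q chains, and 0 held with the PSNL samples added. Crush F and crush M differed in macrophage content of the gated barcodes, and the larger barcodes carried that difference.

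MHC class II genes showed the same split by size. Cd74, the invariant chain, stood at 9374 and 5411 CPM in all gated barcodes of crush F and crush M, against 13121 and 14830 in the others, and did not pass (log2 difference -1.24 ± 0.51 SE, adjusted p = 0.152, edgeR). Under 2000 UMIs it stood at 290 and 565 CPM, a log2 difference of -5.77 (adjusted p = 6.68e-45, edgeR). H2-Ab1, a class II beta chain, went from 3321 and 2415 CPM to 124 and 292. Of 9 dendritic cell markers, 0 were called over all gated barcodes and 6 were lower under 2000 UMIs (8.67% over all genes there). The bound was set after seeing the data.

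**Figure D4:**
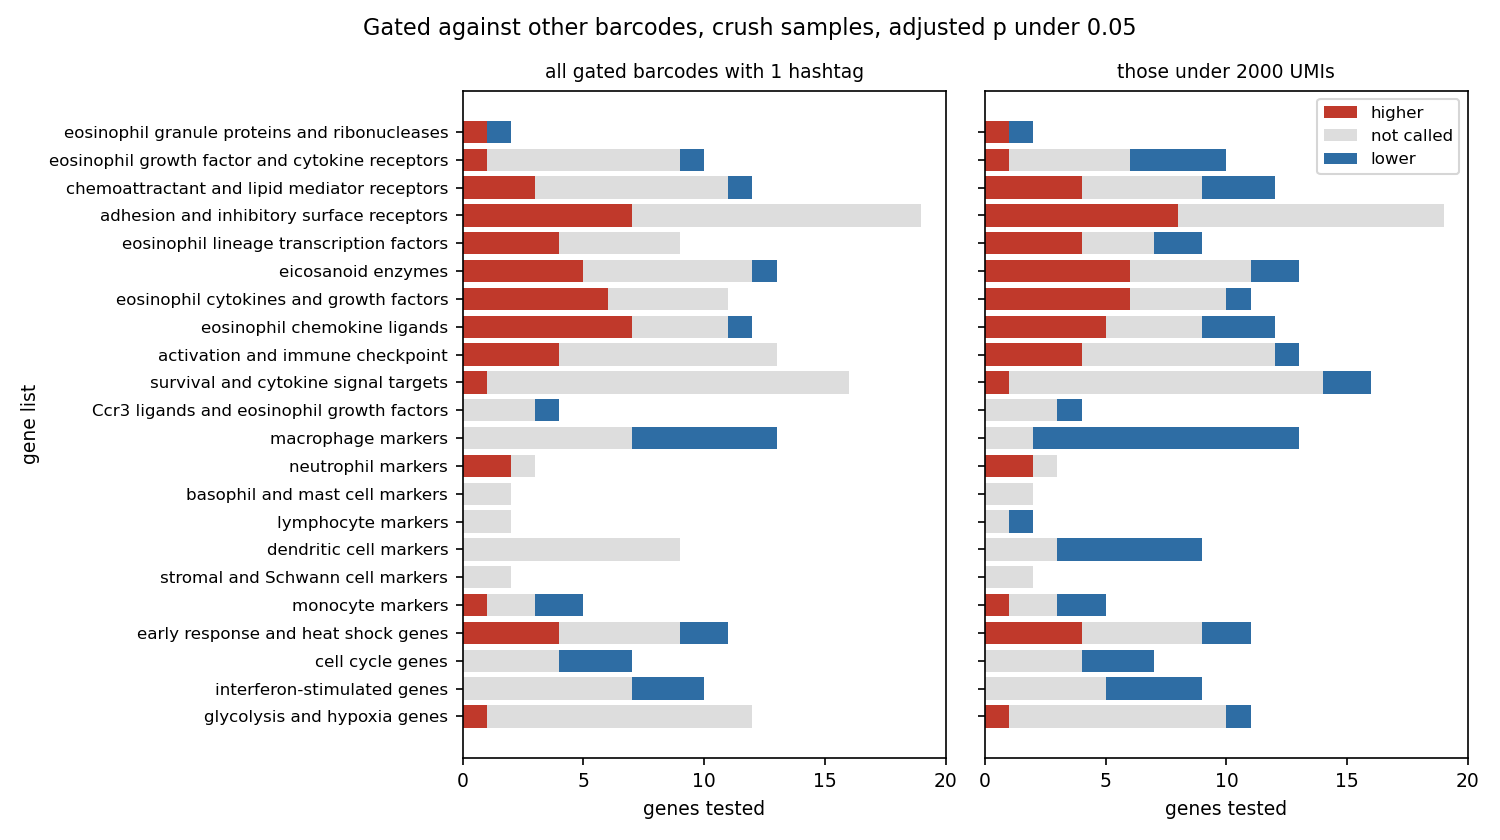
For each gene list (y axis), the number (x axis) of genes tested in crush F and crush M that were higher, lower or not called in gated against other barcodes (adjusted p under 0.05, edgeR), for all gated barcodes with 1 hashtag (left) and for those under 2000 UMIs (right). Higher on the left were 7 of 19 adhesion receptors, 7 of 12 chemokines and 6 of 11 cytokines, against 3.73% of all genes tested. Macrophage markers went from 6 to 11 of 13 lower, against 1.79% and 8.67% of all genes tested.

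Among the larger falls outside the lists, Aif1, which encodes the calcium-binding protein Iba1 of macrophages (30.2 and 104 CPM against 204 and 421, log2 difference -2.44), Ms4a7 (-2.17), Ms4a4c (-2.25), S100a4 (-2.13), the platelet and macrophage chemokine Pf4 (-2.03) and the nuclear lamin Lmna (-2.49) were lower. AY036118, a transcript of unsettled kind that overlaps ribosomal RNA repeats, was lower by -3.76. Cell cycle genes were lower in 3 of 7 tested, where 1.79% of all genes tested were lower and 3.73% higher. DESeq2 called none of the 3. Mki67 gave 0 UMIs against 75.1 and 56.8 CPM in the others, at least 4.27-fold lower against the limit of 3 UMIs over both samples, and Stmn1 gave 1. Interferon-stimulated genes were lower in 3 of 10 (Ifi204 -1.98, Ifit2 -1.77, Isg15 -1.67), but the classes overlapped for each, and 0 of the 3 passed in DESeq2 or with the PSNL samples added. Other barcodes of crush F had little of these genes, with Isg15 at 30.2 CPM in gated and 19.8 in other barcodes there. Of 12 glycolysis and hypoxia genes only Ero1l was higher (2.18), a call lost in DESeq2.

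Signals that recruit eosinophils were looked for in the other barcodes. Ccl11, which encodes eotaxin-1, gave 0 CPM in crush F and 0.293 in crush M, and Il3, Il5, Csf2 and Il25 were at 0 in the same samples. Ccl24, which encodes eotaxin-2, stood at 28.1 and 11.4 CPM. Fibroblasts, the usual source of eotaxin-1, were not in the sort. Of 12 such genes, 4 could be tested and 1 was lower in gated barcodes (1.79% over all genes tested).

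Gated barcodes of PSNL were compared with those of crush over genes. PSNL F had 6 and PSNL M 5 of them, with 8908 and 8720 UMIs, against 66244 and 134160 in crush F and crush M, and 606 genes passed the filter. With edgeR 0 of 606 (0.0%) were called, with 54 at an unadjusted p under 0.05; DESeq2 called 5, and edgeR called 25 without PSNL M. The class II genes had the smallest adjusted p. Cd74 stood at 112 and 115 CPM in PSNL F and PSNL M, which is 1 UMI each, against 9374 and 5411 after crush (log2 difference -6.02, adjusted p = 0.0588, edgeR). H2-Aa (-4.66), H2-Ab1 (-4.65) and H2-Eb1 (-5.63) stood likewise. Under 2000 UMIs, Cd74 stood at 290 and 565 CPM in crush F and crush M, and at 248 in the 9 gated PSNL barcodes together. In that restricted comparison 0 of 221 genes were called, as in the unrestricted one. Other barcodes also had less Cd74 after PSNL, at 4848 and 5429 CPM against 13121 and 14830 after crush. Vim, an intermediate filament gene, was the nearest gene in the other direction (3.04, adjusted p = 0.295). Ccr3, which the gate used, stood at 2470 and 1376 CPM after PSNL and 936 and 1051 after crush, which is a description.

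Whether gated barcodes differed from others by injury was tested as an interaction. Of 7366 genes, 54 (0.733%) passed in edgeR, 3 with a higher (0.0407%) and 51 with a lower (0.692%) ratio of gated to other barcodes after PSNL, while DESeq2 called 5. The count was 12 without crush M, 27 without crush F and 28 without PSNL F. The median log2 difference over all genes was -1.67, 43.5% of the genes had 0 UMIs in the PSNL gated barcodes, and the values of single genes are to be read relative to that shift.

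At 15 weeks the same gate took 6 of 2449 barcodes of the crush library (0.245%, 0.0900 to 0.532) and 8 of 1775 of the PSNL library (0.451%, 0.195 to 0.886). Time cannot be told apart from batch, and the libraries of 15 weeks held no sham sample by their labels. These barcodes were large, with medians of 10486.5 and 14868 UMIs, and 2 and 1 of them were among the 81 and 75 barcodes under 2000 UMIs. Siglecf gave 10 UMIs in each library, Ccr3 6 and 7, Alox15 1 and 4 and Retnlg 15 and 16. Gated barcodes of small size, the most frequent kind in crush at 1 week, were thus few at 15 weeks.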

How the data were processed

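Nerve myeloid cells were profiled by droplet RNA sequencing with hashtag antibodies. The values used are UMI counts, not normalized, as deposited by the authors in 1 matrix per library together with the hashtags. GRCm38 is the build in the submitters' processing notes, and the tools listed there are Seurat 5.1.0 and Cell Ranger 6.0.0. Whether intron reads were counted is not given in the sources used here.

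Members and gene lists were chosen with earlier results of these data known. A barcode was given to a hashtag when exactly 1 hashtag was above the valley of its own counts. UMIs were summed per hashtag sample and class, genes were kept by filterByExpr, and edgeR 4.0.16 (TMM, quasi-likelihood F-test, Benjamini-Hochberg, R 4.3.3) was run on all genes; DESeq2 1.42.0 was an alternative. A minimum of 10 gated barcodes per sample was planned. No PSNL sample reached it, so 5 was used between injuries. Up to 5 genes per list with the smallest adjusted p, the 12 largest rises and falls without overlap between classes, and genes at 0 were named; further list members were named after their values were seen, and some list members are not reported here. The model was tested on simulated data. Alternatives were other hashtag calls (HTODemux of Seurat 5.3.0, quantile 0.99), filters, gates, normalizations, thinning and left-out samples.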

Additional observations from a re-analysis of the deposited data

Results flagged for a closer look

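The difference between gated and other barcodes differed between PSNL and crush in 54 genes (interaction term, edgeR adjusted p under 0.05; DESeq2 called 5). Every value below is the difference of log2 ratios, PSNL minus crush, and rests on 11 gated barcodes after PSNL. Il1rn, the IL-1 receptor antagonist, gave -5.56, with gated barcodes at 1147 and 783 CPM in crush F and M and 225 and 1147 in PSNL F and M, and other barcodes at 27.6, 32.5, 394 and 567. Mmp12, a macrophage elastase, gave -14.90, with 0 UMIs in both PSNL samples, so that the fitted size is no bound. The crush samples differed in it. Gated barcodes stood at 408 CPM against 438 in the others in crush F, and at 1036 against 56.2 in crush M. Retnla, a gene of alternatively activated macrophages, gave 5.65, with 12 UMIs in PSNL M and 0 in PSNL F. Cd74 gave -5.54, on 1 UMI in each PSNL sample. Cxcl2 gave -3.69, with 21 and 150 UMIs in PSNL F and M. Gated barcodes stood at 2357 CPM in PSNL F and 17202 in PSNL M, against 2560 and 3725 in the others. Of the 150 UMIs, 3 came from barcodes under 2000 UMIs and the rest from the 1 larger gated barcode of PSNL M. Over all genes the median of this difference was -1.67.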

How the results depend on the processing

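The higher share after crush than PSNL kept its direction under every alternative run, between 2.18 points (thinned to 1000 UMIs) and 9.68 (HTODemux), and between 9.06 and 9.89 with 1 sample left out. The injury against sham difference ran from 1.36 to 6.47 points, and neither passed the threshold under any setting. Against 447 genes called between gated and other barcodes, DESeq2 called 137, all among the 447. A minimum of 500 genes gave 237, no S100 limit 183 (3 samples), 5 or more gated barcodes per sample 213 (4 samples; 48 without crush M, 81 without crush F, 188 without PSNL F and 209 without PSNL M) and gated barcodes under 2000 UMIs 968; the last 2 kinds, like thinning to 500 UMIs, were chosen after seeing the data. Leaving out crush F or crush M from the main fit, or thinning to 1000 UMIs, leaves values and no test. Cd44 turned to -0.13 in the 4-sample fit without crush M, and Isg15 ranged from -1.90 without crush F to 0.32 without crush M. Ccl22 ranged from -0.45 without crush F to 3.61 without crush M, and turned to -1.39 in the 4-sample fit without crush F and to -9.82 under 2000 UMIs. The cause was not tested. Between PSNL and crush, where edgeR called 0 genes, DESeq2 called 5, RLE scaling 1, no low-count filter 30, HTODemux 4 and no S100 limit 4. Leaving out 1 sample gave 0 to 25, with 25 without PSNL M. With sex as a term (replicate block), 0 were called. For the interaction (54), DESeq2 called 5, RLE scaling 23, and 1 sample left out gave 12 (without crush M) to 49 (without PSNL M). A minimum of 500 genes was not run for these, since the PSNL samples then hold too few gated barcodes. PSNL depth of 8720 and 8908 UMIs limits every comparison between injuries.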
